A study of Mus musculus with 8 samples.

Results

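The array carried 16181 long noncoding probes that it names by a position in the mouse genome and not by a gene, among 55681 probes other than controls. Each is named by an interval of the mm9 build (chromosome, start and end) followed by the letter F or R, read here as the strand label, which the files do not define. They are called interval probes here and were chosen by this form of name alone, with no measured value. After 14 interval probes with a non-uniform spot were set aside, 16167 remained, 8166 with the letter F and 8001 with the letter R, in 3540 intervals. Of the intervals, 1067 had probes of both letters, 1251 only of F and 1222 only of R. A combination of interval and letter held a median of 3 probes and at most 10, and 690 of the 4607 combinations held 1 probe, so that probes of an interval share a locus and are no independent samples. The intervals ran from 62 to 7128487 bp, with a median of 7315.5 bp.

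Long noncoding RNAs are transcripts that are not translated into protein, and many are made at low levels, in a cell-type-restricted way, from the opposite strand of a coding gene, from its introns or from the space between genes. FOXL2 is a forkhead transcription factor that keeps granulosa cells, the somatic cells around the oocyte, in their female identity, and opposes the testis factor SOX9. Estradiol is the estrogen that granulosa cells produce, and acts through nuclear receptors that bind DNA and change transcription.

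The study asked how far FOXL2 and estrogen signalling act together on the granulosa cell transcriptome. Primary follicular cells, mostly granulosa cells, were taken from preantral follicles of Swiss female mice aged 8 weeks, and 5 mice were pooled per preparation. The cells were kept for 9 days, ending in medium with charcoal-treated serum that is poor in steroids, and 50 ng of RNA per sample was labelled with the dye Cy3 for a one-colour array. The 4 groups of 2 arrays were control siRNA (12 pmol of a non-targeting pool for 24 h) with vehicle, control siRNA with 17β-estradiol (E2, 100 nM for the last 10 h), FOXL2 siRNA (12 pmol of a pool against Foxl2 for 24 h) with vehicle, and FOXL2 siRNA with E2. All groups therefore share the pooling, the culture, the transfection and the steroid-poor medium, and none is untransfected. A pool of siRNAs lowers a transcript for a short time and is no deletion. With 2 arrays a group, p-values measure the spread between these arrays. Replicate numbers run from 1 to 2 in each group and are read here as 2 pools of mice. A second fit took the replicate number as a block. Where it changed the count of a comparison or the call of a named probe, its value is given as that of the replicate block. Within loci its calls are given for part of them only. Counts by chromosome, strand, length and combination are from the fit without the block.

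The targeted gene was checked first. The brighter Foxl2 probe did not differ between siRNAs (mean log2 change 0.18, SE 0.10, limma adjusted p = 0.365), and the dimmer one was lower with FOXL2 siRNA (-0.97, SE 0.19, limma adjusted p = 0.0200). Sox9 was higher (2.05, SE 0.15, limma adjusted p = 0.000386) and Fst, which encodes follistatin, was lower (-2.02, SE 0.14, limma adjusted p = 0.000277). The groups are therefore called by their labels, as arrays labelled FOXL2 siRNA. Among markers fixed for the cell types of the follicle and testis, 6 of 8 granulosa genes were well above background on all 8 arrays, and Amh and Fshr on none. Of the oocyte genes Gdf9 was above background on 8 arrays, Ddx4 on 7, Dppa3 on 1, and Bmp15, Zp1, Zp2 and Zp3 on none. The macrophage genes Cd68, Csf1r and Cd14 and the endothelial genes Pecam1 and Kdr were above background on all 8 arrays, and Ptprc for leukocytes and Cdh5 and Tek for endothelium on none. The summed log2 signal of the 3 theca genes with a probe (Lhcgr on no array) was 14.25 to 14.46 with control siRNA and 15.17 to 15.25 with FOXL2 siRNA, and that of the 4 Sertoli genes was 11.24 to 11.71 and 12.17 to 12.68. Of the theca genes Cyp11a1 was called higher (0.89) and Cyp17a1 was not called (0.62), and of the Sertoli genes Sox9, Sox8 (1.72) and Dhh (1.04) were called higher and Dmrt1 was not called (-0.48). These values move with the siRNA beside every result below on the siRNA, and their part in those results was not tested. On an array, fewer cells of a type and less RNA per cell cannot be told apart.

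Interval probes were dimmer than the rest of the array. The share of interval probes well above background ranged from 34.3% to 40.5% over the 8 arrays, against 58.3% to 61.8% of all other probes. On all 8 arrays 4607 interval probes (28.5%) were well above background, against 21701 other probes (55.0%), and 7784 interval probes were above background on none. The number well above background on both arrays of a group was 5461 with control siRNA and vehicle, 5050 with control siRNA and E2, 5215 with FOXL2 siRNA and vehicle, and 5474 with FOXL2 siRNA and E2. The control E2 arrays thus had the fewest interval probes detected, and the other probes gave the same order of groups, from 22342 with control siRNA and E2 to 23013 with FOXL2 siRNA and E2.

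A filter on low signal (median scaled signal of at least 10 over the arrays, in units where the 75th percentile of an array is 329) kept 6882 interval probes among 31657 probes of all kinds. The last probe kept had a median of 10.0 and the first left out 9.99. The filter kept 40.4% of F probes and 44.8% of R probes. By length of the interval it kept 37.9% up to 1 kb, 45.5% from 1 to 10 kb, 42.9% from 10 to 50 kb and 41.5% above 50 kb, and by chromosome from 33.2% on chromosome 9 to 50.4% on chromosome 5. No interval lay on the Y chromosome. At least 1 probe was kept in 3069 of the 4607 combinations of interval and letter, and all of them in 1160. Of the 1067 intervals with both letters, 378 had a probe of each letter well above background on all 8 arrays, 200 only an F probe, 241 only an R probe and 248 neither. Levels below are log2 of the scaled signal, and they compare the same probe between arrays only, since brightness does not rank different RNAs.

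The 3 interval probes with the highest mean signal were bright on every array. A_30_P01031754 (chr19:5801802-5802597_R) had log2 levels of 17.54 to 18.44, A_30_P01026458 (chr11:22681800-22707775_R) of 17.22 to 17.48, and A_30_P01020015 (chr17:39982023-39983277_F) of 16.57 to 17.26. None passed the test for the siRNA averaged over both treatments, and their changes were 0.27 (SE 0.18), 0.00 (SE 0.06) and 0.29 (SE 0.15).

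Replicate arrays were less close for interval probes than for the other probes. The 2 arrays of a group correlated at r = 0.956 to 0.969 over the kept interval probes, and their median absolute log2 difference was 0.27 to 0.35, against 0.16 to 0.22 for the other probes. The median standard error of a change was 0.308 for an interval probe and 0.171 for another probe. Among probes of like brightness the gap was small. For the siRNA change averaged over both treatments, the medians of interval and other probes were 0.367 and 0.368 at a mean log2 level below 4. They were 0.237 and 0.234 from 4 to 6, 0.147 and 0.141 from 6 to 8, 0.109 and 0.104 from 8 to 10, and 0.093 and 0.078 from 10 up. The arrays lie on 1 slide and were read in 1 scan.

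**Figure D1:**
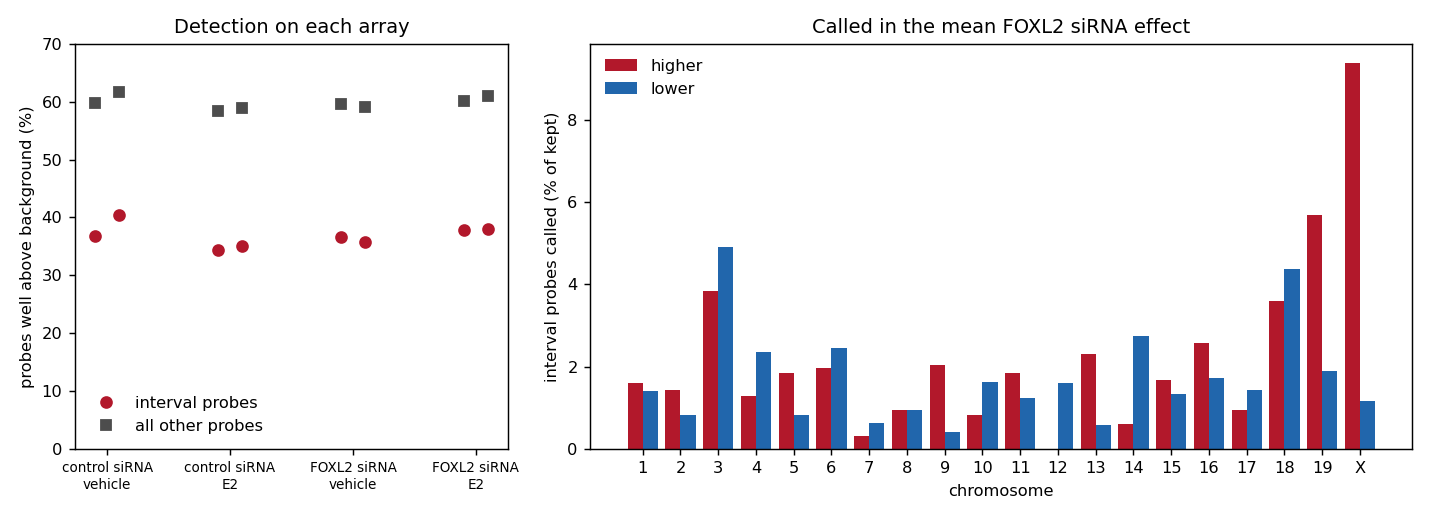
Left, percent of interval probes and of all other probes well above background, 1 point per array and 2 arrays per group. Interval probes lie between 34.3% and 40.5%, below the other probes on every array. Right, percent of the kept interval probes of each chromosome called higher or lower in the mean FOXL2 siRNA effect, with chromosome X at 10.5% in all and chromosome 7 at 0.946%.

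E2 was compared with vehicle first in cells with control siRNA. No interval probe was called (limma, adjusted p under 0.05), where 0.00948% of all probes tested were, and 395 interval probes had an unadjusted p under 0.05. A rule on size and spread that gives no p-value (a mean difference of at least 1 on the log2 scale and above 2 times the summed group SDs) selected 60, or 0.872% of interval probes against 0.55% of all probes, and 53 of the 60 were lower (88.3%, against 87.9% of all probes it selected, where 0.483% of all probes were selected as lower). With the replicate block 12 were called, 3 higher and 9 lower, where 0.329% of all probes were (limma). The median change of interval probes was -0.11, against -0.01 for other probes. It moved with the processing. It was -0.110 with the normexp background correction and -0.100 with the authors' deposited table. With quantile normalization it was -0.025 (0.009 over all probes), and without the filter on low signal it was 0.006 (0.015 over all probes). By mean log2 level, the medians of interval and other probes were -0.19 and -0.22 below 4, -0.15 and -0.09 from 4 to 6, -0.09 and -0.01 from 6 to 8, -0.03 and 0.02 from 8 to 10 and -0.06 and -0.01 from 10 up. Interval probes thus had the lower median in every class but the dimmest. The classes were not repeated with other processing. The interval probe nearest to a call among those higher was A_30_P01023331 (chrX:165792277-165807952_F), at 6.87 and 6.68 with vehicle and 7.36 and 7.44 with E2. Its change was 0.63 (SE 0.14, limma adjusted p = 0.697). Next by p was A_30_P01019050 (chr9:43926204-43928496_F, limma adjusted p = 0.905), which was well above background on no array of either group and so has no fold.

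Nearest to a call among those lower with E2 were 2 probes of one interval, chrX:50400250-50410825_R. A_30_P01021240 was at 10.19 and 10.08 with vehicle and 9.17 and 9.06 with E2, and its change was -1.03 (SE 0.13, limma adjusted p = 0.151). A_30_P01025504 was at 8.81 and 8.63 with vehicle and 7.77 and 7.52 with E2 (-1.07, limma adjusted p = 0.165). For both probes the 2 groups did not overlap. Neither change passed the test, and with the replicate block both were called (limma adjusted p = 0.00205 and 0.00282).

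In cells with FOXL2 siRNA, E2 changed 5 interval probes, 3 higher and 2 lower (0.0727% of those kept, against 0.0411% of all probes tested). The replicate block gave 16, 10 higher and 6 lower, where 0.322% of all probes were called, and the rule on size and spread selected 48 where 0.373% of all probes were. Here and below, the probes named are those with the largest called change among probes whose compared arrays do not overlap and that were well above background on both arrays of at least 1 group. A_30_P01018039 (chr16:8738782-8830148_R) was at 10.77 and 10.74 with vehicle and 12.92 and 13.02 with E2. It rose by 2.22 (SE 0.11, limma adjusted p = 0.00178), while with control siRNA its 4 arrays lay between 10.51 and 10.78 in either treatment. A_30_P01027463 (chr5:34696192-34722842_R) rose from 10.52 and 10.37 to 13.22 and 13.14, by 2.74 (SE 0.22, limma adjusted p = 0.0156). A_30_P01020118 (chr4:128727332-128735227_F) was not well above background on either FOXL2 siRNA vehicle array, at 3.24 and 2.86, and was at 6.13 and 5.54 with E2, at least 4.26-fold higher (limma adjusted p = 0.0488).

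The 2 probes that fell with E2 in these cells were both high on the FOXL2 siRNA vehicle arrays alone. A_30_P01032170 (chr3:19179899-19216399_F) fell from 9.56 and 9.14 to 7.26 and 7.12 (-2.16, SE 0.21, limma adjusted p = 0.0305), near its levels with control siRNA, 6.77 to 7.49. A_30_P01028020 (chr6:90915489-90940052_R) fell from 13.55 and 13.68 to 12.24 and 12.33 (-1.33, SE 0.12, limma adjusted p = 0.0290), and its control siRNA arrays lay between 12.34 and 12.67. The other kept probe of that interval, A_30_P01029584, went the other way, with an E2 change of 1.09 that was not called. Left out 1 at a time, the 8 arrays gave 0 to 3 interval probes called in this comparison. A_30_P01018039 was called in 6 of those 8 fits, A_30_P01027463 in 4, A_30_P01028020 in 2, and A_30_P01020118 and A_30_P01032170 in 0.

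FOXL2 siRNA was compared with control siRNA in vehicle-treated cells. It changed 98 interval probes, 45 higher and 53 lower, or 1.42% of those kept against 3.59% of all probes tested. The replicate block gave 348 (207 higher, 141 lower), where 10.9% of all probes were called. Leaving out 1 array at a time gave 35 to 90 calls, the fewest without FOXL2 siRNA vehicle replicate 2. Of the 98 probes, 25 were called in all 8 such fits. The count without control siRNA vehicle replicate 2 was 42 (11 higher, 31 lower) and without FOXL2 siRNA vehicle replicate 1 was 47.

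The largest rise was that of A_30_P01018146 (chr6:145647711-145756861_F), from 8.87 and 8.61 to 10.70 and 10.84, a change of 2.03 (SE 0.22, limma adjusted p = 0.00377). A_30_P01032170, described above, rose by 1.94 (SE 0.21, limma adjusted p = 0.00363). A_30_P01027093 (chr1:122655019-122660142_F) rose from 4.61 and 4.59 to 6.39 and 6.66, by 1.93 (SE 0.32, limma adjusted p = 0.0176). With E2 the siRNA changes of the first and second were 0.35 and 0.17 and were not called, and neither was the difference between treatments (limma adjusted p = 0.196 and 0.126). With the replicate block both differences were called (limma adjusted p = 0.00754 and 0.00654).

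The largest fall was that of A_30_P01020118, from 8.45 and 7.84 to 3.24 and 2.86. It was not well above background on either FOXL2 siRNA vehicle array and was at least 21.1-fold lower (limma adjusted p = 0.000726). A_30_P01018721 (chr3:95502970-95503399_R) fell from 12.35 and 12.23 to 9.72 and 9.53, by 2.66 on the log2 scale (SE 0.11, limma adjusted p = 0.000180), and was called in all 8 fits with 1 array left out. A_30_P01026900 (chr12:12916233-12919835_F) was at 4.73 and 4.45 and then at 2.43 and 1.67, not well above background, at least 1.80-fold lower (limma adjusted p = 0.0186).

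In E2-treated cells FOXL2 siRNA changed 65 interval probes, 27 higher and 38 lower, or 0.944% of those kept against 2.38% of all probes tested. The replicate block gave 260 (142 higher, 118 lower), where 8.48% of all probes were called, and the rule on size and spread selected 125 where 2.08% of all probes were. With the normexp background correction the split was 31 higher and 29 lower. Leaving out 1 array at a time gave 12 to 53 calls, and 10 of the 65 probes were called in all 8 fits. The split turned with the arrays used. It was 10 higher and 3 lower without control siRNA E2 replicate 1, 9 and 4 without control siRNA E2 replicate 2, 17 and 19 without FOXL2 siRNA E2 replicate 1, and 10 and 2 without FOXL2 siRNA E2 replicate 2. Without the intensity trend in the fit it was 17 and 9.

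The largest rise with FOXL2 siRNA and E2 was that of A_30_P01027463, from 10.08 and 9.48 with control siRNA to 13.22 and 13.14 (3.40, SE 0.22, limma adjusted p = 0.00127). A_30_P01022207 (chr14:64735748-64736349_R) was not well above background with control siRNA and E2, at 3.68 and 3.42, and reached 6.76 and 6.51, at least 8.19-fold higher (limma adjusted p = 0.0110). A_30_P01018039 rose by 2.34 (SE 0.11, limma adjusted p = 0.000573). On the vehicle arrays the siRNA changes of these 3 probes were 0.55, 0.65 and 0.11, and none was called. The difference between treatments was called for A_30_P01027463 and A_30_P01018039 and not for A_30_P01022207 (limma adjusted p = 0.469).

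Among probes that fell with FOXL2 siRNA and E2, A_30_P01024456 (chr4:90877414-90917198_F) was at 5.55 and 5.81 and then at 3.12 and 2.83, not well above background, at least 4.61-fold lower (limma adjusted p = 0.00776). A_30_P01018644 on chromosome 18 was at 4.97 and 5.10 and then at 3.23 and 2.80, at least 2.95-fold lower (limma adjusted p = 0.0431). It was called in 5 of 9 settings other than left-out arrays, and with 1 array left out its change was -2.24 to -1.81. A_30_P01022176 (chr4:63810346-63810958_F) fell from 5.77 and 5.34 to 3.95 and 3.14 (-2.01, SE 0.41, limma adjusted p = 0.0485) and was called in 0 of the 8 fits with 1 array left out.

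The vehicle and E2 arrays give 2 sets of siRNA changes that share no array. Over the 6882 kept interval probes these changes correlated at r = 0.28, and at 0.54 over the other probes, and 60.4% of interval probes had the same sign in both. The points share probes and labelling, and probes of an interval are not independent. Of the 134 interval probes called in either treatment, 130 had the same sign in both, and all 29 called in both had the same sign.

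**Figure D2:**
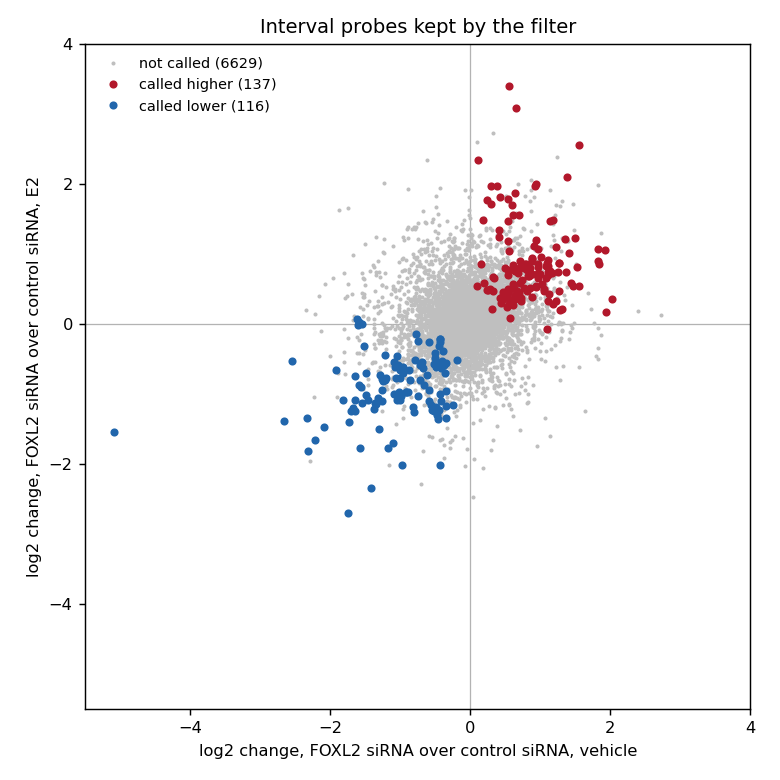
Log2 change with FOXL2 siRNA on vehicle arrays (horizontal) against that on E2 arrays (vertical), 1 point per kept interval probe. Coloured points are the 137 probes called higher and 116 called lower in the mean of both changes. Of the 253 coloured points, 250 have the same sign on both axes, which largely follows from their selection by the mean of both changes.

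Averaged over both treatments, which sets 4 arrays against 4, FOXL2 siRNA changed 253 interval probes. Of these, 137 were higher and 116 lower, in all 3.68% of those kept against 7.93% of all probes tested and 9.11% of the other probes. The replicate block gave 684 (396 higher, 288 lower), or 9.94% of those kept where 18.3% of all probes were called. The share called was larger at higher signal. It was 0.687% of interval probes with a mean log2 level below 4, 2.06% from 4 to 6, 5.55% from 6 to 8 and 7.53% from 8 to 10, against 2.93%, 4.97%, 8.69% and 10.9% of other probes. From 10 up it was 48 of 418 interval probes and 1038 of 8916 other probes. In the brightest class the shares were thus close, and below it the interval probes had the lower share. Of the 253, 224 were well above background on all 8 arrays and 250 had the same sign in both treatments. The call was made on the mean of these 2 changes, so the shared sign largely follows from the selection. Leaving out 1 array at a time gave 124 to 313 calls, and 96 of the 253 were called in all 8 fits. The counts were 136 and 130 without control siRNA E2 replicates 1 and 2, and 161 without control siRNA vehicle replicate 2. They were 124 without FOXL2 siRNA E2 replicate 2 and 147 without FOXL2 siRNA vehicle replicate 2.

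By the same rule, 6 rises and 6 falls with FOXL2 siRNA over both treatments were taken. A_30_P01027463 rose by 1.98 (SE 0.15, limma adjusted p = 0.000452), and its rise lay on the E2 arrays. A_30_P01017577 (chr4:124127144-124334840_R) was well above background on no control siRNA array, at 2.51 to 3.83, and lay at 3.89 to 6.00 on the FOXL2 siRNA arrays, at least 2.80-fold higher (limma adjusted p = 0.0346). It was called in 2 of the 8 fits with 1 array left out. A second probe of that interval, A_30_P01019540, rose by 1.75, and the other 2 kept had changes of 1.38 and 1.36 that were not called.

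A_30_P01027093, on chromosome 1, rose by 1.49 (SE 0.22, limma adjusted p = 0.00663), from 4.57 to 5.26 on control siRNA arrays to 5.64 to 6.66. A_30_P01032393 (chr4:89088538-89130181_F) rose by 1.36 (SE 0.23, limma adjusted p = 0.0115), from 4.39 to 5.40 to 5.94 to 6.33, and a second probe of its interval, A_30_P01024160, rose by 1.01. The interval chr15:66682293-66722977 had a called probe on each strand. A_30_P01029219 on R rose by 1.36 (SE 0.24, limma adjusted p = 0.0131), and A_30_P01027097 on F, above background on no control siRNA array, was at least 1.48-fold higher (limma adjusted p = 0.0269). In the 8 settings other than left-out arrays, A_30_P01029219 was called in 8 and A_30_P01027097 in 6. The other kept F probes, A_30_P01023189 and A_30_P01031205, had changes of 0.75 and -0.42 that were not called.

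The 6 falls came from 5 intervals, and 4 of the 6 probes lay on chromosome 4. A_30_P01020118 on chromosome 4 fell by 3.32 on the log2 scale (SE 0.22, limma adjusted p = 0.000258), from 7.15 to 8.45 on control siRNA arrays to 2.86 to 6.13. On chr4:90877414-90917198 A_30_P01024456 on F was above background on no FOXL2 siRNA array and at least 3.72-fold lower (limma adjusted p = 0.00144), and A_30_P01026074 on R fell by 1.94 (SE 0.23, limma adjusted p = 0.00254). A_30_P01018721 on chromosome 3 fell by 2.03 (SE 0.08, limma adjusted p = 0.000137), with 11.85 to 12.35 on the control siRNA arrays and 9.53 to 10.56 on the others. These 4 probes were called in all 8 fits with 1 array left out.

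The remaining 2 were less stable. A_30_P01024269 (chr6:13801450-13853450_F), above background on no FOXL2 siRNA array, was at least 1.40-fold lower (limma adjusted p = 0.0239). A_30_P01017915 (chr4:63810346-63810958_F) fell by 1.88 (SE 0.45, limma adjusted p = 0.0444), with 5.02 to 6.47 on the control siRNA arrays and 2.86 to 4.80 on the others. Each was called in 1 of the 8 fits. All 3 kept probes of the latter interval were lower by 1.49 to 1.88, and 2 of them were called.

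**Figure D3:**
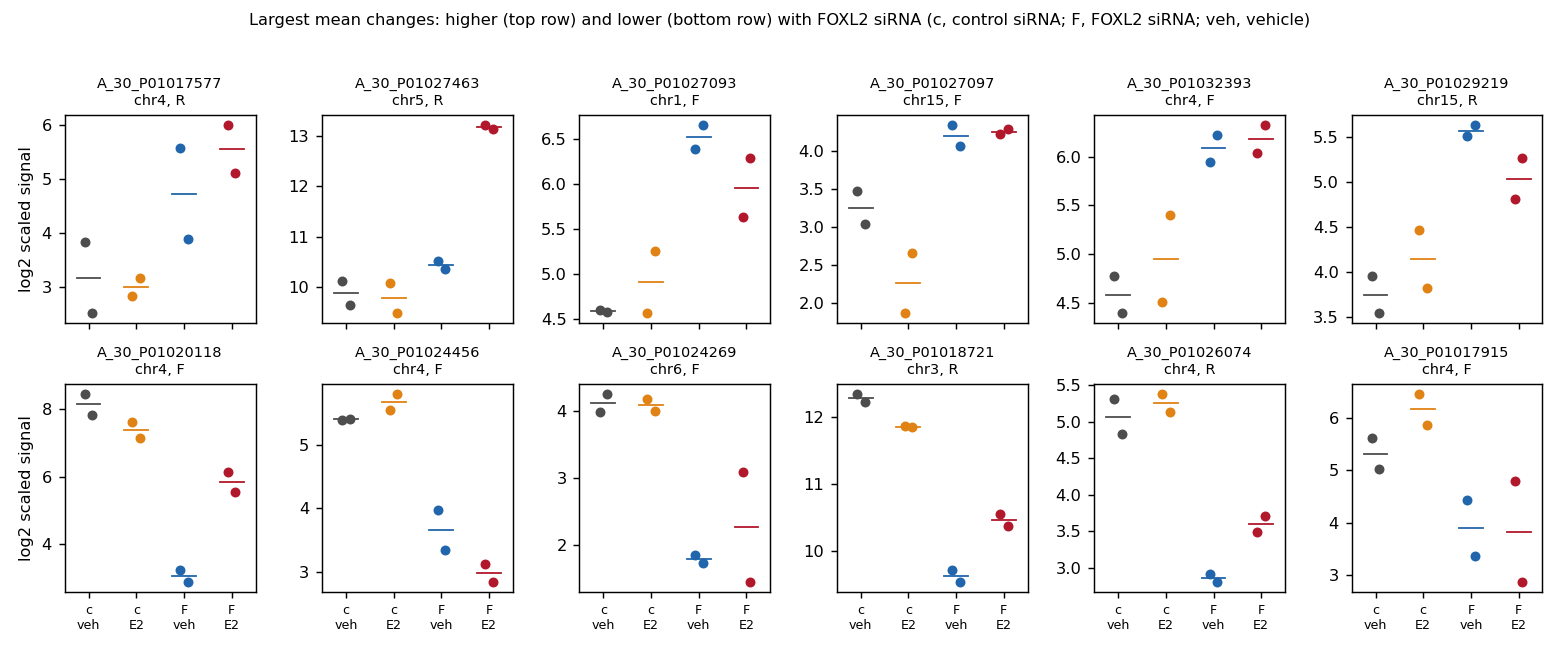
Log2 scaled signal of the 12 interval probes named for the mean FOXL2 siRNA effect, 1 point for each of the 8 arrays and a bar at each group mean (c, control siRNA; F, FOXL2 siRNA). Probes were chosen so that the 4 FOXL2 siRNA arrays lie all above or all below the 4 control siRNA arrays, and A_30_P01027463 is above 13 on the FOXL2 siRNA E2 arrays only.

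Interval probes called on each chromosome were counted in the same comparison. The share was 10.5% on chromosome X (24 higher and 3 lower of 256), 8.74% on chromosome 3 (14 higher, 18 lower), 7.97% on chromosome 18 (9 higher, 11 lower) and 7.59% on chromosome 19 (9 higher, 3 lower). It was lowest on chromosome 7, at 0.946% (1 higher, 2 lower). A few loci carried these shares, a locus being a set of intervals that overlap on either strand. On chromosome X, 17 of the 27 called probes lay in 2 loci, on chromosome 18 it was 13 of 20 and on chromosome 19 it was 8 of 12, whereas on chromosome 3 it was 11 of 32 in 10 loci. Without the X locus of 16 kept probes the share on X was 7.08%.

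The strand letters gave similar counts. With F, 67 probes were higher and 60 lower (3.85% of those kept), and with R, 70 were higher and 56 lower (3.51%). By length of the interval the share called was 3.83% up to 1 kb, 3.20% from 1 to 10 kb, 3.61% from 10 to 50 kb and 4.62% above 50 kb.

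Both strands had a kept probe in 603 intervals. The median change of the F probes and that of the R probes had the same sign in 329 of these (54.6%) and correlated at r = 0.22, with intervals as points that share arrays. A probe was called in 68 of the intervals: on F alone in 27, on R alone in 33 and on both in 8. Of those 8 the F and R medians had the same sign in 7. The exception was chr6:116092274-116144199, with medians of 0.23 on F and -0.13 on R, 1 called F probe higher and 2 called R probes lower.

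**Figure D4:**
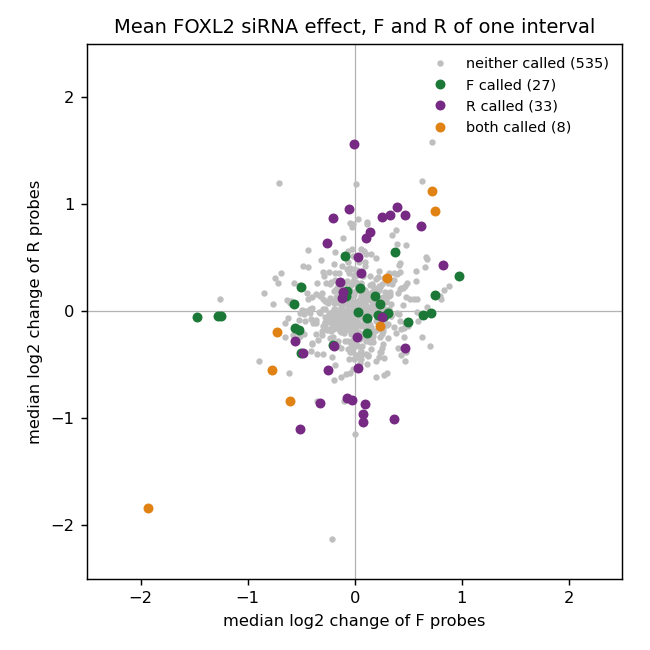
Median log2 change with FOXL2 siRNA, mean of both treatments, of the F probes (horizontal) and R probes (vertical) of the 603 intervals with kept probes on both, marked by which letter has a called probe (27 F, 33 R, 8 both, the rest neither). Points spread over all 4 quadrants.

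Probes of one interval and letter were set beside each other. The median standard deviation of the siRNA change within a combination was 0.17, and the standard deviation over all kept interval probes was 0.39. The first is a median over small sets and the second a single value, so they do not measure closeness alike. All kept probes had the same sign in 51.1% of the 1740 combinations with at least 2 kept. A call was made in 160 combinations, 54 had at least 2 called probes, and none had calls in both directions. In the 1087 combinations with at least 3 kept probes, 114 had a call: 63 had exactly 1, 25 had 2 and 26 had 3 or more, and in 20 every kept probe was called. Joined into loci, the intervals gave 2223 loci, of which 1610 had a kept probe and 129 a called one. At least 3 probes were called in 26 loci, which held 126 of the 253 calls. The calls were all higher in 13 of these, all lower in 11 and mixed in 2.

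The locus with the most calls lay on chromosome X (chrX:50400250-50410825, 16 kept probes). FOXL2 siRNA raised 10 of them, all called higher. The change was larger with E2, where 9 of the 16 were called, against 2 with vehicle (11 and 4 with the replicate block). The 6 R probes of the longer interval had a median of 1.80 with E2 (5 called) and 0.34 with vehicle (0 called), and its F probes 0.94 and 0.19. For E2 with control siRNA the replicate block called 5 probes of the locus, and for the difference of E2 changes 9. A_30_P01021240 on R was at 10.52 and 10.24 with FOXL2 siRNA and vehicle, and at 10.95 and 10.81 with E2, beside 10.19 and 10.08, and 9.17 and 9.06, with control siRNA. The control siRNA E2 arrays were thus the low ones, and the E2 arrays differed by siRNA by 1.77 (SE 0.13, limma adjusted p = 0.00155).

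A second locus on chromosome X had its change with vehicle (chrX:165758353-165807952, 8 kept probes, all F). In the mean of both treatments 7 of the 8 rose. With vehicle the 8 changes were 1.13 to 1.55 and 7 were called, and with E2 they were 0.11 to 0.58 and none was called. A_30_P01023331 was at 8.13 and 8.05 with FOXL2 siRNA and vehicle and at 7.55 and 7.68 with E2, beside 6.87 and 6.68, and 7.36 and 7.44, with control siRNA. The change of E2 was positive with control siRNA for all 8 probes (0.34 to 0.63) and negative with FOXL2 siRNA (-0.54 to -0.28). The difference of these E2 changes was -1.10 to -0.70 and did not pass the test for any, and with the replicate block it was called for 2 of the 8.

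Other loci rose in the mean of both treatments, with fewer calls in each alone. At chrX:12755425-12772575, 6 of 10 kept probes were called higher, with a median of 0.81, and 3 were called with vehicle and 2 with E2. A_30_P01024963 there lay at 10.54 to 10.76 on the control siRNA arrays and 11.34 to 11.80 on the others, a rise of 0.90 (SE 0.08, limma adjusted p = 0.000623). At chr19:59498190-59531390 all 5 kept R probes rose by 0.89 to 1.01, 3 of them called with vehicle and 2 with E2, and the 2 kept F probes were not called. At chr19:60220577-60238494 all 3 kept F probes rose by 0.85 to 0.98, with 1 called with vehicle and 0 with E2. At chr1:122655019-122660142 all 3 rose by 1.35 to 1.49, with 3 called with vehicle and 0 with E2. With the replicate block the calls with vehicle and with E2 in these 4 loci were 6 and 6, 5 and 5, 3 and 3, and 3 and 2.

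In a further set of loci some of the kept probes were called higher. At chr2:127988295-128194920, 5 of 11 kept probes were called higher (median 0.72), and at chr11:119250824-119296960, 4 of 9, with all 9 changes between 0.55 and 0.81. At chr3:146629425-146649125 the call was made for 5 of 8 (0.32 to 0.56 over the 8), at chr3:90425270-90435820 for 4 of 7, at chr5:34696192-34753368, which holds A_30_P01027463, for 3 of 9 and at chr16:43623175-43642715 for 3 of 26. A locus on chromosome 18 had 7 of 15 called higher, all on R. The replicate block gave 8, 9, 7, 5, 3, 9 and 7 calls in these loci, in the order named.

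Among loci that fell, chr16:23534663-23535172 is short and had all 3 of its F probes called. A_30_P01028355 lay at 8.55 and 8.46 with control siRNA and vehicle and 8.36 and 8.54 with E2, and at 7.10 and 6.83, and 7.43 and 7.22, with FOXL2 siRNA. It fell by 1.33 on the log2 scale (SE 0.11, limma adjusted p = 0.000572), and the other 2 probes fell by 1.20 and 1.37. With vehicle the 3 changes were -1.65 to -1.54 and all were called.

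At chr14:21437920-21464655, 6 of 10 kept probes fell, all F, by 0.95 to 1.06. A_30_P01031848 lay at 8.29 to 8.53 on the control siRNA arrays and 7.06 to 7.63 on the others (-1.06, SE 0.14, limma adjusted p = 0.00381). The 3 F probes of the interval chr14:21461716-21462270 and the 1 R probe in the same locus were not called. At chr3:137734560-137752677 all 6 kept probes, on F, fell by 0.75 to 1.29, with 5 called with vehicle and 0 with E2 (6 and 1 with the replicate block). At chr4:90877414-90917198 4 of 5 fell, 1 on F and 3 on R, and the one not called had a change of -1.64. With the replicate block all 5 were called there.

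At chr3:87757295-87774970 the fall was seen with vehicle. A_30_P01018307 on F was at 13.13 and 13.04 with control siRNA and vehicle and at 11.69 and 11.24 with FOXL2 siRNA, while with E2 it was at 12.18 and 12.15, and 12.43 and 12.04. A_30_P01020627 on F was at 15.46 and 15.35, and 14.11 and 13.62, with vehicle, and at 14.65 and 14.61, and 14.84 and 14.41, with E2. Its change was -1.54 (SE 0.18, limma adjusted p = 0.00488) with vehicle and -0.01 with E2. For 4 of the 5 kept F probes the vehicle change was -1.62 to -1.54 and called, and the fifth, A_30_P01026280, had a change of -0.08. The difference between treatments was 1.53 to 1.69 for those 4 and was not called (limma adjusted p = 0.0673 to 0.159). With the replicate block it was called for those 4. In that fit 4 probes of the locus were also called for E2 with control siRNA and 4 for E2 with FOXL2 siRNA.

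The other loci that fell were less complete. At chr3:126989696-127201919, 5 of 21 kept probes were called lower, and the replicate block called 9. At chr1:139713316-139913366 it was 5 of 23 and 9 with the block, and at chr15:32167516-32174427 3 of 15 and 9 with the block. At chr6:122725638-122752828 it was 3 of 5 with or without the block. The last 3 lay on R in chr6:122741562-122743423, where A_30_P01018332 was at 11.74 to 12.05 on the control siRNA arrays and 10.90 to 11.10 on the others (-0.92, SE 0.07, limma adjusted p = 0.000469). A pair of neighbouring loci on chromosome 18 had 6 of 12 and 5 of 15 called lower (7 and 11 called with the replicate block). Their median changes were -1.20 and -1.10 with E2 and -0.34 and -0.49 with vehicle. The difference between treatments was not called for any probe of either, with or without the replicate block.

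In the 2 mixed loci the directions split by interval or strand. At chr6:116092274-116144199 the 3 F probes of chr6:116123643-116124550 fell by 0.62 to 0.66, 2 R probes fell, and 1 F probe of the longer interval rose by 0.39. At chr10:83181374-83249918, 3 R probes fell by 0.65 to 0.83 and 1 F probe, A_30_P01025586, rose by 0.78 (SE 0.19, limma adjusted p = 0.0494).

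**Figure D5:**
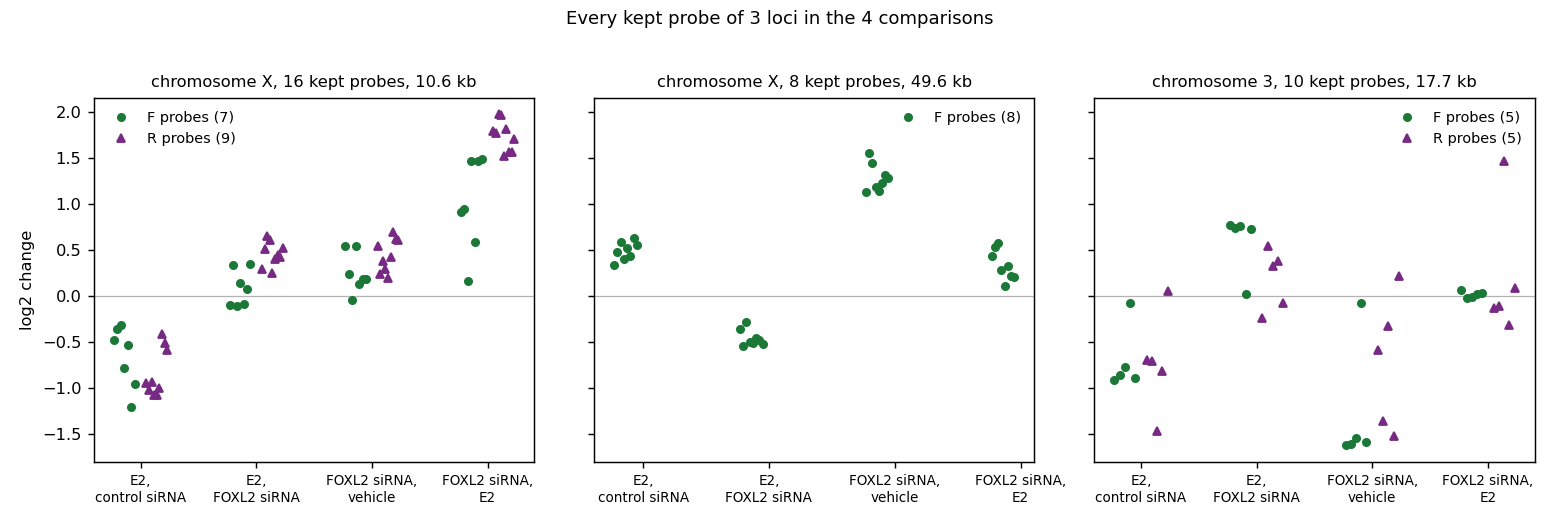
Log2 change of each kept interval probe in 3 loci (2 on chromosome X with 16 and 8 probes, 1 on chromosome 3 with 10) in 4 comparisons: the E2 change with either siRNA, and the change by FOXL2 siRNA in either treatment. Circles are F and triangles R probes. The first locus is highest for FOXL2 siRNA with E2, the second for FOXL2 siRNA with vehicle, and in the third most probes are low for FOXL2 siRNA with vehicle and near 0 with E2.

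Several of the largest changes belonged to a single probe of an interval. In chr4:128727332-128735227_F, A_30_P01020118 fell by 3.32, while the other 3 kept probes had mean changes of -0.02, 0.12 and 0.18. In chr5:34696192-34722842_R, A_30_P01027463 rose by 3.40 with E2 and the other 2 had changes of 0.04 and 0.38. In chr16:8738782-8830148_R, A_30_P01018039 rose by 2.34 with E2, and the other 3 had changes of 0.38 to 0.86, of which none was called with E2 (A_30_P01033575 rose by 0.46 in the mean of both treatments).

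The same held for 2 of the probes that rose with vehicle. In chr3:19179899-19216399_F, A_30_P01032170 rose by 1.94 and the other 5 had changes of -0.43 to 0.40. In chr6:145647711-145756861_F, A_30_P01018146 rose by 2.03, and the other 7 had changes of -0.10 to 0.87 that were not called. An interval can span several exons or transcripts, and which transcript each probe meets was not tested.

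The last comparison asked whether E2 acted differently with the 2 siRNAs. The difference was the E2 change with FOXL2 siRNA minus that with control siRNA, and it shares every array with the comparisons above. It was called for 7 interval probes, all positive (0.102% of those kept against 0.107% of all probes tested), so the share was close to the background. With the replicate block it was called for 33, 19 positive and 14 negative, where 0.878% of all probes were called. A_30_P01018039 had the smallest p (2.24, SE 0.16, limma adjusted p = 0.00514). A_30_P01020118 had the largest difference (3.54, SE 0.44, limma adjusted p = 0.0426) and A_30_P01027463 the next (2.85, SE 0.31, limma adjusted p = 0.0292).

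The other 4 were A_30_P01018721 on chromosome 3 (1.27) and 3 R probes of chrX:50400250-50410825, A_30_P01021240 (1.53), A_30_P01024920 (1.59) and A_30_P01025504 (1.68). Only A_30_P01018039 was called in most fits with 1 array left out (6 of 8), A_30_P01027463 was called in 1 and the other 5 in 0. The probes with the smallest p in the other direction, A_30_P01028020 (-1.18) and A_30_P01032170 (-1.77), were not called (limma adjusted p = 0.0673 and 0.126), and with the replicate block both were (limma adjusted p = 0.00148 and 0.00654).

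Long noncoding RNAs whose probes are assigned to a gene were set beside the interval probes. Whether an interval holds one of these genes was not tested. Of 56 listed genes, 41 had a probe and 32 a kept one, with 51 kept probes. In the mean FOXL2 siRNA effect 3 of the 51 rose and 4 fell, beside the 7.93% of all probes called in that comparison. The 3 were 1 of 3 kept probes of Meg3, from an imprinted cluster (0.99), and 2 of 4 of Airn, the antisense transcript that silences the paternal Igf2r allele (0.73 and 0.61). The 4 were 1 of 3 probes of Gas5 (-0.34), Snhg1 (-0.45), Snhg12 (-0.53) and Zfas1 (-0.54), which host small nucleolar RNAs. Snhg3, Snhg5, Snhg6, Snhg7 and Snhg18 were not called, with changes of -0.31 to -0.21, and neither was Snhg11 (-0.13, SE 0.54). H19, Tsix and 5 more of the list were above background on no array.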

How the data were processed

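RNA from 8 samples in 4 groups was measured on one-colour Agilent arrays (design 028005, mm9), and the deposited scanner files hold spot intensities from Feature Extraction 11.5.1.1, the processed signal being already background-corrected. The authors' deposited table of log2 values served as an alternative only. Of 62976 spots, 3671 were controls. Non-uniform spots of 42 probes (14 of them interval probes) were left out, and each interval probe had 1 spot. Processed signals were divided by the 75th percentile of the array (275 to 367) and multiplied by its median over arrays, probes with a median of at least 10 were kept, and log2 was taken. Detection is the scanner's own call of well above background. No count of molecules underlies an array, so the number of arrays limits the precision.

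Group means were fitted with limma 3.58.1 in R 4.3.3 (lmFit, eBayes with an intensity trend, 4 residual degrees of freedom) over all 8 arrays and all 31657 kept probes, two-sided, with Benjamini-Hochberg adjustment over those probes and called below 0.05. Comparisons, 6 in all, set E2 against vehicle with each siRNA and FOXL2 siRNA against control siRNA in each treatment, with the mean of the latter pair and the difference of the former. A fit with the replicate number as a block was the alternative. The methods name a pool of mice for each replicate, from which same-numbered samples were read as sharing a pool, which is not stated outright. Deviations of same-numbered arrays from their group means correlated at 0.205 to 0.336 over all kept probes, in every pair of groups. Over the kept interval probes alone they correlated at 0.038 to 0.257. The numbers also match the row of the slide, so pool and row cannot be told apart. The script was tested on simulated data. Summaries used Python 3.11.15 with pandas 2.3.3, NumPy 2.4.6 and Matplotlib 3.10.9.

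Named probes were the largest called changes (6 a direction for the mean siRNA effect, 3 for the other comparisons) among probes without overlap between the arrays compared (not asked of the difference) and above background on both arrays of 1 group, with 1 probe for each interval and letter. Where a direction had no call, the 2 smallest p-values were taken. Probes of loci with at least 3 calls, of intervals called on both strands, and the 3 brightest were added. For a probe with no array of a group well above background a bound is given: the mean of the other group against, per array, the higher of the lowest signal well above background and the probe's own. Alternatives were normexp (offset 50), quantile normalization, another scaling set, other filters, no trend, fewer samples, the deposited table, the replicate block, 1 array left out and the size rule of the methods. Probe sequences, a genome of the mm9 build and gene names of the intervals were not used here, and overlapping intervals may share sequence. The members and lists were chosen with earlier results of these data known.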

Additional observations from a re-analysis of the deposited data

Results flagged for a closer look

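The E2 change differed between the siRNAs for 7 interval probes (limma adjusted p under 0.05 for the difference itself, E2 change with FOXL2 siRNA minus that with control siRNA). The differences on the log2 scale were 3.54 for A_30_P01020118, 2.85 for A_30_P01027463, 2.24 for A_30_P01018039 and 1.27 for A_30_P01018721. They were 1.53, 1.59 and 1.68 for A_30_P01021240, A_30_P01024920 and A_30_P01025504, which lie on R in 1 interval of chromosome X and share a locus. A_30_P01018039 was called in 6 of 8 fits with 1 array left out, A_30_P01027463 in 1 and the other 5 in 0.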

How the results depend on the processing

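With 2 arrays a group, the counts of interval probes called moved with the arrays used and the model of the spread, and no named probe changed direction in any setting. Leaving out 1 array at a time gave 0 to 1 calls for E2 with control siRNA, 0 to 3 for E2 with FOXL2 siRNA, 35 to 90 for FOXL2 siRNA with vehicle, 12 to 53 with E2, 124 to 313 for the mean of both and 0 to 2 for the difference of E2 changes. Of 304 repeats for named probes with 1 array left out, 103 lost the call, and of 346 repeats in other settings 43 lost it and 7 gained it.

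Without the filter on low signal the counts were 1 for E2 with FOXL2 siRNA, 59 for FOXL2 siRNA with vehicle, 37 with E2 and 1 for the difference. Without the intensity trend they were 1 for E2 with FOXL2 siRNA, 26 for FOXL2 siRNA with E2 and 0 for the difference (limma, 254 at an unadjusted p under 0.05 with the trend). With only the groups compared in the fit they were 2 for E2 with FOXL2 siRNA and 41 for FOXL2 siRNA with vehicle. The size rule of the methods selected 60 for E2 with control siRNA, 48 for E2 with FOXL2 siRNA and 125 for FOXL2 siRNA with E2. The cause of these differences was not tested. For the mean of both treatments the settings other than the replicate block and left-out arrays gave 169 to 270 calls.

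With the replicate number as a block, which pairs same-numbered arrays, the counts were 12, 16, 348, 260, 684 and 33 in the order of the left-out arrays above, and among named probes it added 4 calls, printed beside their results, and removed 0. Counting interval probes detected by a signal of at least 10 on every array gave 5484 in place of 4607. Depth here is signal over background, and 34.3% to 40.5% of interval probes were well above it on an array.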
